A study of Mus musculus with 28 samples.

Results

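Transcripts of the proteasome were followed across 28 microarrays of mouse splenic dendritic cells. The genes were taken by symbol: a probe set had to carry exactly 1 gene symbol in the platform annotation, and that symbol had to begin with Psma, Psmb, Psmc, Psmd, Psme, Psmf or Psmg and a digit. The array held 56 such probe sets for 50 symbols, and for the 5 genes with several, the one brightest on average was used. A gene was analysed where its log2 expression value was above 5 on at least 3 arrays, as were 48 of the 50 symbols. Of these 48, Psmc3ip and Psme3ip1 match the pattern but encode no part of the proteasome, and they are counted apart. The remaining 46 genes are the proteasome genes described here, out of 10452 genes tested in all. They comprise 7 alpha-ring and 7 constitutive beta-ring genes of the 20S core, 5 immunoproteasome genes, 6 ATPases and 11 non-ATPases of the 19S cap, 3 chaperones of 19S assembly, 4 chaperones of 20S assembly, and 3 further regulators.

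The 2 proteasome genes left out were Psma8, an alpha subunit known from testis, and Psmb11, the catalytic subunit of the thymus, whose highest values were 4.19 and 4.64. Just inside the threshold lay Psmd5, above 5 on 13 arrays with a mean of 4.80, and Psmd10, above 5 on 16 arrays with a mean of 5.35. Psmd5 passed on 7 arrays and Psmd10 on 10 arrays outside the group in which proteasome transcripts were highest, so no member entered through that group alone.

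The proteasome is the main protease for ubiquitin-tagged proteins in the cytosol and nucleus. Its 20S core is a barrel of stacked rings, with gate-forming alpha subunits outside and beta subunits inside, of which Psmb6, Psmb7 and Psmb5 carry the caspase-like, trypsin-like and chymotrypsin-like activities. The 19S cap binds ubiquitin chains, removes them and uses its ATPase ring to unfold the substrate and push it into the core. In immune cells, and after interferon gamma in many others, Psmb9, Psmb10 and Psmb8 replace the constitutive catalytic subunits in newly assembled cores, and the PA28 ring of Psme1 and Psme2 can bind in place of the cap. Dendritic cells use these immunoproteasomes to make peptides for presentation on MHC class I.

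All animals were 3 months old, and cells came from spleen. Wild-type mice (C57BL6/J) made up 4 groups. Vehicle controls numbered 7 arrays, and the peptide hormone angiotensin II (Ang II), which raises blood pressure, was given in 4. In 4 more it was combined with 2-hydroxybenzylamine (2-HOBA), a scavenger of reactive lipid aldehydes. In the last 6 it was combined with the vasodilator hydralazine plus the diuretic hydrochlorothiazide, written Hyd/HCTZ. Mice without NOX2, labelled GP91 Phox knockout, gave vehicle (n = 3) and Ang II (n = 4) groups. NOX2 carries the catalytic site of the superoxide-producing oxidase of phagocytes, and the study asked how oxidative stress acts on the expression profile of these cells. Some knockout titles write Ang I where the descriptions give Ang II, which was followed. The series text speaks of isolated cells being treated while its title names hypertension, so whether mice or cells received the agents is not settled, and doses, durations and the gate used for isolation are not given in the sources used here. Replicates are labelled biological, but nothing states that they came from separate animals, so p-values measure the spread among these samples.

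Each value was a log2 expression value, so a difference of 1 is a 2-fold difference. The array labelled wild-type vehicle replicate 2 stood apart from the others. Its value for Cybb, which encodes NOX2, was 6.34, whereas the 7 knockout arrays spanned 6.41 to 7.18 and the remaining 20 wild-type arrays 8.35 to 9.75. Its interquartile range was 1.92, and the group means of that range were 2.53 to 2.72, with 3.26 for Hyd/HCTZ. Its mean correlation was 0.852, the next lowest of any array being 0.927. Whether a wrong label or the array itself lies behind these values was not tested. The first principal component of 5998 unnamed control-type probe sets held 27.4% of their variance and separated 3 sets of arrays. Set 1 had 12 arrays, namely the whole knockout series, the first 3 vehicle replicates of the wild type and its Ang II replicates 1 and 2. Set 2 had 10 arrays, the other wild-type vehicle and Ang II arrays and all those with 2-HOBA, and set 3 was the 6 Hyd/HCTZ arrays. Array set and Hyd/HCTZ therefore cannot be told apart. Dendritic cell markers, 12 of 12 tested, had a mean level of 7.17 to 9.08 per array. On the wild-type vehicle arrays its median was 7.87, and that of the 9 tested B-cell markers was 8.67. With Hyd/HCTZ these medians were 9.02 and 6.47, and in every other group the B-cell median was the higher. The lists hold different genes, so these levels give no share of cells.

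The bases before the transcription start are shown for 4 catalytic genes, constitutive and inducible, and for the cap genes Psmd6 and Psmd11, which differed in size of response with Hyd/HCTZ. Each run is the 250 bases upstream of the start in the RefSeq promoter table (GRCm38.p6), written on the gene's strand. Capitals mark matches on either strand to TGACNNNGC (the core of the antioxidant response element, which binds the Nrf1 and Nrf2 factors encoded by Nfe2l1 and Nfe2l2), TTCNNNGAA (a gamma-activated site, bound by STAT factors), the interferon regulatory factor element and CCGGAAG (an ETS site). Psmb6 lies at chr11:70525107-70525356 on the plus strand and Psmb9 at chr17:34187331-34187580 on the minus strand. Psmb5 lies at chr14:54617996-54618245 on the minus strand and Psmb8 at chr17:34197945-34198194 on the plus strand. Psmd6 lies at chr14:14120946-14121195 on the minus strand and Psmd11 at chr11:80428365-80428614 on the plus strand.
Psmb6: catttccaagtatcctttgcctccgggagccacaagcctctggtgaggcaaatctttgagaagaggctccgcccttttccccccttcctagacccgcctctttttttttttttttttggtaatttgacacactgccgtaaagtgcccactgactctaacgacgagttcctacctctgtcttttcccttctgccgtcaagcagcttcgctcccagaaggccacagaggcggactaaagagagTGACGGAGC
Psmb9: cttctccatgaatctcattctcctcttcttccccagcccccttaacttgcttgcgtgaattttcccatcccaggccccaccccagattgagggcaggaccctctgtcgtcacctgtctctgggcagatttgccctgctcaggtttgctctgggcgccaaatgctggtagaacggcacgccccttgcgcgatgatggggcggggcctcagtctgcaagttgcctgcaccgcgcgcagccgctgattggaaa
Psmb5: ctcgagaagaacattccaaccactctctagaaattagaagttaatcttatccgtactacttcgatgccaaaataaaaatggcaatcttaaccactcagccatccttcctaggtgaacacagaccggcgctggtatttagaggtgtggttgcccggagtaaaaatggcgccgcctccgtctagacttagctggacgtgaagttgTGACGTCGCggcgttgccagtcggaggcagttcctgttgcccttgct
Psmb8: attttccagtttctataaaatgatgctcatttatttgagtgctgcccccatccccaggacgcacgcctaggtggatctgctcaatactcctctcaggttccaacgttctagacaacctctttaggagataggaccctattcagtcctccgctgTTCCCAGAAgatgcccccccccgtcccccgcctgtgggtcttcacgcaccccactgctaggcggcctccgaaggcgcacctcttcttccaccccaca
Psmd6: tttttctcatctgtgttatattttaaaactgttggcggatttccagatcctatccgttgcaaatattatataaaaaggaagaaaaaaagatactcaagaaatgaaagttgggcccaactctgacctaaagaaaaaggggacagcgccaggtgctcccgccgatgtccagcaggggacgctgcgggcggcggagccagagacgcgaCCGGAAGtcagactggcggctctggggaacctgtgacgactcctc
Psmd11: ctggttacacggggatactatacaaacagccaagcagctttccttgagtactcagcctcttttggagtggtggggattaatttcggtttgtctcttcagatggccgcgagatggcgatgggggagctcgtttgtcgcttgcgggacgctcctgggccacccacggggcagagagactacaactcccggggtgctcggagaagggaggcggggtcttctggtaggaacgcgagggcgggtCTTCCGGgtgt

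The antioxidant core matched in Psmb6 in the last 9 bases before the start (TGACGGAGC) and in Psmb5 at 47 to 39 bases before it (TGACGTCGC). Psmb8 held a gamma-activated site (TTCCCAGAA), and Psmb9 held none of the 4 patterns. Of the 46 genes 39 had an entry, and 5 of them, or 12.8%, held the antioxidant core, near the 11.5% of all 27025 genes in the table. The gamma-activated site was in 5.13% of members and 8.13% of all genes, and the interferon regulatory factor element in 7.69% and 3.46%. The ETS site was in 12 of the 39 members, or 30.8%, against 7.83% of all genes. By class these were 8 of 14 genes of the 19S cap, 1 of 11 of the 20S core, 0 of 5 of the immunoproteasome, 2 of 3 further regulators and 1 of 3 chaperones of the core. NRF-1, nuclear respiratory factor 1, is a different protein from the Nrf1 encoded by Nfe2l1. Its site CTGCGCA was in 15.4% of members and 5.11% of all genes, with 4 of 11 core and 1 of 14 cap genes. These motifs were singled out of 15 after their counts were seen, and no difference between classes was tested. A match is a string of letters and not a measured binding site. Both Psmd6 and Psmd11 carry the ETS site. They were the cap genes with the largest difference and with one of the smallest in the comparison that follows, and were picked for that. No relation between a motif and the size of a difference was tested.

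In wild-type cells given Ang II, proteasome transcripts were higher where Hyd/HCTZ was added, and the differences were larger in the core than in the cap. Of the 46 genes, 40 rose and 0 fell (limma, adjusted p under 0.05), where 52.7% of all tested genes were called, 40.8% higher and 11.9% lower. The median difference was 1.73 over the 14 genes of the 20S core, 1.35 over the 5 immunoproteasome genes and 0.78 over the 17 genes of the 19S cap. The Hyd/HCTZ arrays shifted as a whole, with a median difference of 0.32 over all tested genes, so calls are also given relative to that median. On that scale 32 of the 46 rose, against 23.7% of all genes higher and 25.0% lower. All 14 core and 5 immunoproteasome genes were among them, as were 8 of the 17 cap genes. RNA was taken from bulk cells, so a change in the mix of cells and a change in RNA per cell cannot be told apart.

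**Figure D1:**
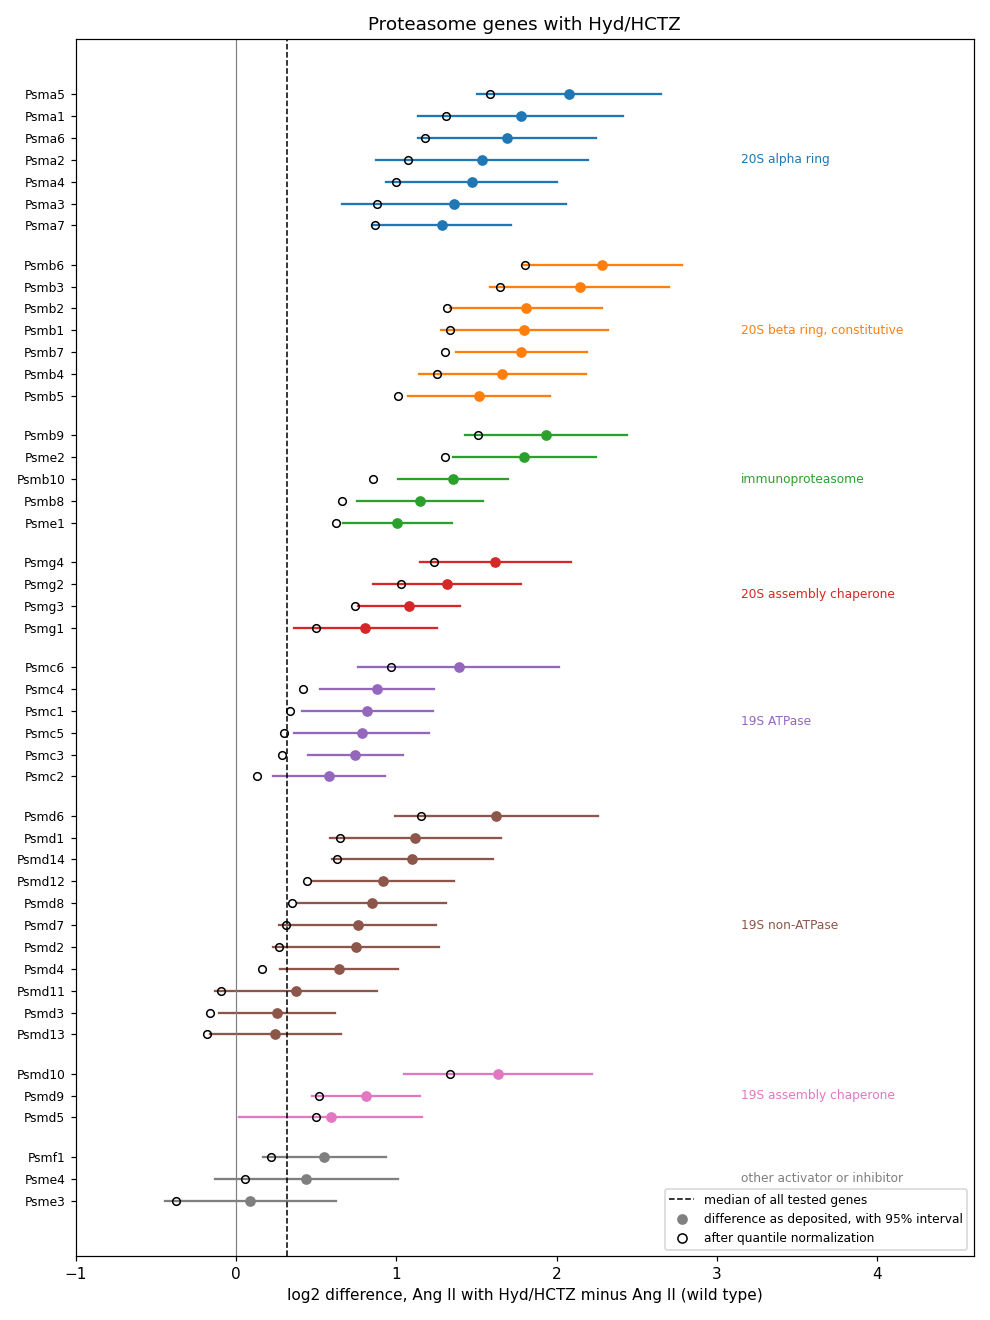
Log2 difference of each of the 46 proteasome genes between the 6 Hyd/HCTZ arrays and the 4 Ang II arrays of wild-type cells, by class. Filled points are differences of the deposited values with 95% intervals, open circles are differences after quantile normalization, and the dashed line is the median of all tested genes at 0.32. The 14 core genes lie from 1.28 to 2.28, and the cap genes reach down to 0.25.

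The constitutive beta ring gave the largest differences. Psmb6, the caspase-like subunit, read 6.69, 6.84, 8.29 and 7.46 on the Ang II arrays and 9.47 to 9.73 with a median of 9.58 with Hyd/HCTZ, so the groups did not overlap. Its difference was 2.28 (SE 0.24, adjusted p = 2.29e-08, limma), or 4.86-fold, and 1.96 relative to all genes. Psmb7, the trypsin-like subunit, read 6.47, 6.61, 7.10 and 7.07 with Ang II and 8.42 to 8.82 with a median of 8.51 with Hyd/HCTZ. Every Hyd/HCTZ array was above every Ang II array for it, a difference of 1.78 (SE 0.20, adjusted p = 5.64e-08). Psmb5, the chymotrypsin-like subunit, read 7.16, 7.69, 8.15 and 8.04 with Ang II against 9.11 to 9.38 with a median of 9.33. Its difference of 1.52 (SE 0.22, adjusted p = 1.91e-06) was the smallest of the 7 constitutive beta genes. The others have no catalytic site: Psmb3 rose by 2.14 (SE 0.27, adjusted p = 3.68e-07), Psmb2 by 1.81 (SE 0.23), Psmb1 by 1.80 (SE 0.26) and Psmb4 by 1.66 (SE 0.25).

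The alpha ring, whose N-terminal tails form the gate of the core, rose in 7 of 7 genes by 1.28 to 2.08. Psma5 had the largest difference and read 6.50, 6.75, 7.87 and 7.59 with Ang II and 9.11 to 9.51 with a median of 9.20 with Hyd/HCTZ. The groups were separate, and its difference was 2.08 (SE 0.28, adjusted p = 8.66e-07), or 4.22-fold. Psma1 followed at 1.78 (SE 0.31) and Psma6 at 1.69 (SE 0.27), and Psma7 was lowest at 1.28 (SE 0.21, adjusted p = 1.47e-05). Where a core gene had further probe sets, they differed the same way. For Psmb3 a second probe set gave 2.75, for Psma5 1.84, and for Psma3 2 more gave 1.19 and 1.40 beside the 1.36 of the one kept. Many proteasome genes have processed pseudogene copies, and cross-hybridisation to them was not tested.

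The immunoproteasome genes rose in 5 of 5 cases. Psmb9, the interferon-inducible counterpart of Psmb6, read 8.38, 8.94, 9.58 and 9.80 with Ang II and 10.87 to 11.37 with a median of 11.13 with Hyd/HCTZ. The groups did not overlap, and the difference of 1.94 (SE 0.25, adjusted p = 3.70e-07) was the largest of the 5. Psmb10, the counterpart of Psmb7, read 6.85, 6.97, 7.24 and 6.92 with Ang II against 7.95 to 8.52 with a median of 8.42. That was a rise of 1.35 (SE 0.17, adjusted p = 2.13e-07). Psmb8, the counterpart of Psmb5, read 7.27, 7.86, 8.06 and 7.83 with Ang II and 8.75 to 9.12 with a median of 8.87 with Hyd/HCTZ, 1.15 higher (SE 0.19, adjusted p = 1.72e-05). Both PA28 subunits rose as well, though unequally. Psme2, the beta subunit, read 7.34, 6.95, 7.996 and 7.56 with Ang II and 8.98 to 9.46 with a median of 9.29 with Hyd/HCTZ, a difference of 1.80 (SE 0.22, adjusted p = 1.66e-07). Psme1, the alpha subunit, read 9.32, 9.34, 9.91 and 9.83 against 10.45 to 10.68 with a median of 10.63, a difference of 1.01 (SE 0.17, adjusted p = 1.35e-05).

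**Figure D2:**
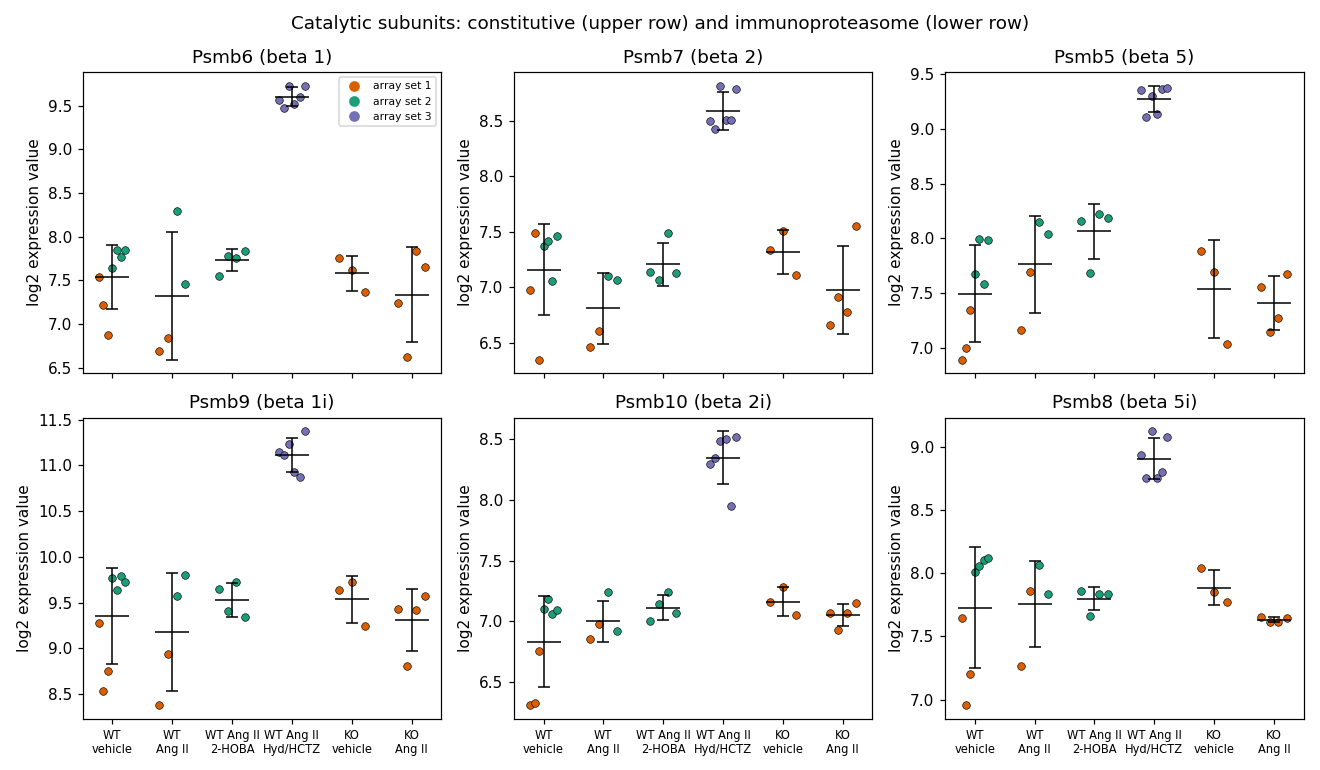
Log2 expression values of the 3 constitutive catalytic genes (upper row) and the 3 immunoproteasome genes that replace them (lower row) on every array, by group. Points are arrays coloured by array set, and bars are the group mean with its SD. The Hyd/HCTZ arrays lie above all other arrays in each panel, at 9.47 to 9.73 for Psmb6 and 10.87 to 11.37 for Psmb9.

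Because the inducible subunits replace the constitutive ones pair by pair, the log2 ratio of each pair was followed on each array, set to a mean of 0 in wild-type vehicle. This cancels a shift that is equal for all genes of an array, but not a difference in the spread of its values. It shows how a ratio changed, not how much of either protein was present. With Hyd/HCTZ the Psmb8/Psmb5 ratio averaged -0.60 ± 0.13 (SD, n = 6) and the Psmb9/Psmb6 ratio -0.31 ± 0.15, while Psmb10/Psmb7 stood at 0.09 ± 0.20. With Ang II alone the same ratios were -0.24 ± 0.18, 0.03 ± 0.47 and 0.52 ± 0.25 (SD, n = 4). The Hyd/HCTZ and Ang II arrays overlapped in all 3 ratios: Psmb8/Psmb5 ran from -0.80 to -0.41 with Hyd/HCTZ and from -0.44 to -0.06 with Ang II. With 2-HOBA, Psmb8/Psmb5 was -0.50 ± 0.17 (SD, n = 4), near the Hyd/HCTZ value. No ratio of an inducible to a constitutive gene was higher with Hyd/HCTZ than with Ang II on average.

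The chaperones that build the core rose in 4 of 4 cases as deposited and in 3 of 4 relative to all genes. Psmg1 and Psmg2, which pair to assemble the alpha ring, differed by 0.81 (SE 0.22, adjusted p = 0.0030) and 1.32 (SE 0.23, adjusted p = 2.26e-05). Psmg3 and Psmg4, the other pair, differed by 1.08 (SE 0.15) and 1.62 (SE 0.23, adjusted p = 1.80e-06). Psmg1 read 5.31, 5.51, 5.79 and 5.33 with Ang II and 6.12 to 6.41 with a median of 6.33 with Hyd/HCTZ, without overlap. It was the chaperone that did not pass relative to all genes, at 0.49 (adjusted p = 0.064). Pomp, the maturation factor that works with them and is not part of the symbol rule, rose by 1.58 (SE 0.21).

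In the 19S cap, 14 of 17 genes rose as deposited, but only 8 relative to all genes, and 2 of the 17, Psmd6 and Psmc6, exceeded the lowest core gene. Psmd6 read 6.57, 6.32, 7.20 and 6.98 with Ang II and 8.11 to 8.57 with a median of 8.46 with Hyd/HCTZ, a difference of 1.62 (SE 0.31, adjusted p = 8.86e-05). Psmd14, the deubiquitinase of the cap, read 6.21, 6.64, 7.21 and 6.80 against 7.71 to 7.91 with a median of 7.83. It rose by 1.10 (SE 0.25, adjusted p = 5.20e-04), with no overlap. Psmd4, a ubiquitin receptor, read 7.36, 7.40, 7.39 and 7.23 with Ang II and 7.85 to 8.12 with a median of 7.99 with Hyd/HCTZ. Its 0.64 (SE 0.18, adjusted p = 0.0039) was 0.32 relative to all genes and not called there (adjusted p = 0.14). The 6 ATPases all rose as deposited, by 0.58 for Psmc2 to 1.39 for Psmc6, and 4 of them relative to all genes. Psmc4 among them read 6.55, 6.64, 6.90 and 6.74 against 7.42 to 7.82 with a median of 7.52, a rise of 0.88 (SE 0.17, adjusted p = 1.30e-04).

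The cap genes that were not called were Psmd3, Psmd11 and Psmd13, all structural subunits of the lid. Psmd11, a scaffold of the lid known to be limiting for assembly in stem cells, read 6.93, 7.10, 7.51 and 7.11 with Ang II and 7.23 to 7.74 with a median of 7.59 with Hyd/HCTZ. The groups overlapped, and its difference of 0.37 (95% interval -0.13 to 0.88, adjusted p = 0.21) was -0.09 after quantile normalization. Psmd3 and Psmd13 differed by 0.25 each, with 95% intervals of -0.11 to 0.62 and -0.16 to 0.65. Among the chaperones of the cap base, Psmd10 (gankyrin) rose by 1.63 (SE 0.29, adjusted p = 3.26e-05) and Psmd9 by 0.81 (SE 0.16, adjusted p = 1.75e-04), while Psmd5 differed by 0.59 (adjusted p = 0.077).

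The 3 further regulators gave the smallest differences of any class, with 1 called as deposited and 0 relative to all genes. Psme3, the nuclear PA28 gamma activator, read 7.40, 7.32, 8.08 and 7.84 with Ang II and 7.49 to 8.03 with a median of 7.77 with Hyd/HCTZ. The groups overlapped, at a difference of 0.09 (95% interval -0.45 to 0.62, adjusted p = 0.79), and the sign turned to -0.38 after quantile normalization. Psme4, the PA200 activator, differed by 0.44 (95% interval -0.14 to 1.01, adjusted p = 0.19). Psmf1, the proteasome inhibitor PI31, read 5.63, 5.74, 5.86 and 6.10 against 6.00 to 6.65 with a median of 6.44. Its difference of 0.55 (SE 0.19, adjusted p = 0.016) was called as deposited, with overlap between the groups, and not relative to all genes (adjusted p = 0.32). The symbols that encode no proteasome part differed by -0.03 for Psme3ip1 and 0.58 for Psmc3ip.

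Differences depended on how bright a gene was, and most proteasome genes are bright. Over all tested genes the median difference went from -0.18 in the lowest of 10 equal bins of mean level to 0.52 in the highest. The 35 proteasome genes in the upper 3 bins had a median of 1.28, against 0.50 for all 3136 genes there, and 91.4% of them were called higher, against 49.3%. After quantile normalization, which gives every array the same distribution, these medians were 0.86 and 0.05, and the shares 68.6% and 27.4%. The split between core and cap remained on that scale. Of the 46 genes 30 were called, namely 14 of 14 core, 5 of 5 immunoproteasome and 6 of 17 cap genes and 5 chaperones, where 24.1% of all genes were higher and 17.8% lower. With every array set to a common median, 41 of the 46 rose, where the shares of all genes were 45.8% and 8.70%. On the deposited scale all Hyd/HCTZ arrays lay above all Ang II arrays for 39 of the 46, against 34.4% of all genes.

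**Figure D3:**
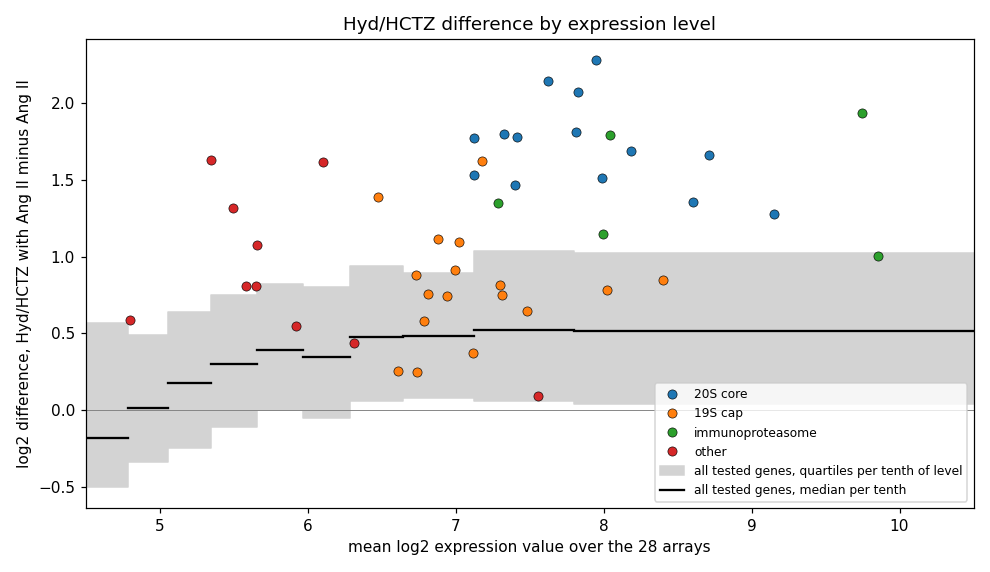
Log2 difference between Hyd/HCTZ and Ang II arrays of wild-type cells against the mean log2 expression value over 28 arrays. Points are the 46 proteasome genes by class, black bars the median of all tested genes in each of 10 equal bins of level, and grey bands their quartiles. The 14 core genes, at 1.28 or more, lie above the upper quartile of every bin, and the cap genes spread from 0.25 to 1.62.

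The array sets bear on this result, because among wild-type vehicle arrays alone the proteasome genes already differed by set. The mean of the core genes, relative to the vehicle mean, was -0.93 to -0.15 on the 3 vehicle arrays of set 1 and 0.24 to 0.56 on the 4 of set 2. The Ang II arrays split the same way, at -0.52 to -0.39 in set 1 and 0.22 to 0.60 in set 2. The immunoproteasome mean was -0.67 to -0.12 and 0.27 to 0.33 on the vehicle arrays of the sets, and replicate 2 was lowest in both classes. All 6 Hyd/HCTZ arrays lay above these ranges, at 1.56 to 1.84 for the core, 0.64 to 0.96 for the cap and 1.23 to 1.55 for the immunoproteasome. With array set as a random block, 28 of the 46 genes were called, against 16.6% of all genes higher: 13 of 14 core, 5 of 5 immunoproteasome and 6 of 17 cap genes. Against the 2 Ang II arrays of set 2 alone, the core median was 1.28 with 12 of 14 called. The cap median was 0.68 with 8 of 17 and the immunoproteasome median 1.27 with 5 of 5. In that fit 24.7% of all genes were called higher, and their median difference was 0.25. Against the 2 of set 1 the core median was 2.13 with 14 of 14 called, where 39.0% of all genes were higher and their median was 0.39. None of these fits separates Hyd/HCTZ from array set, because the Hyd/HCTZ arrays form a set of their own.

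**Figure D4:**
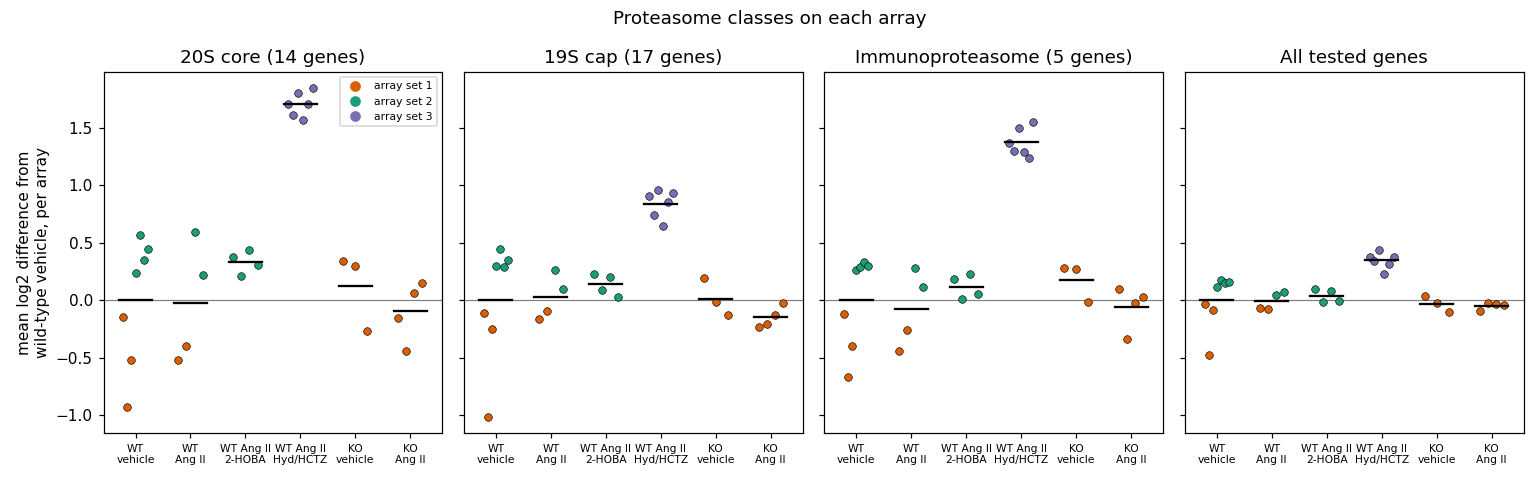
Mean log2 difference from the wild-type vehicle mean on each array, over the 14 core genes, the 17 cap genes, the 5 immunoproteasome genes and all 10452 tested genes. Points are arrays coloured by array set, and bars are group means. The Hyd/HCTZ arrays reach 1.56 to 1.84 for the core, and in the 3 classes the wild-type vehicle and Ang II arrays of set 1 lie below those of set 2.

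Markers of other cells moved with the Hyd/HCTZ group, beside 40.8% of all genes called higher and 11.9% lower. Of 12 dendritic cell markers, 11 were higher and 0 lower, with a mean level of 8.87 to 9.08 per array against 7.61 to 8.07 with Ang II. All 9 tested B-cell markers were lower, at 5.82 to 6.99 against 8.16 to 9.10, and all 6 erythroid markers were lower, at 3.90 to 4.59 against 5.02 to 6.28. All 10 markers of red pulp macrophages were higher, at 7.85 to 9.31 against 6.88 to 7.90. Of T and NK cell markers 3 of 8 were lower, at 5.19 to 5.97 against 5.89 to 6.89. Of neutrophil markers 3 of 7 were lower, at 5.44 to 6.99 against 6.55 to 8.39. Of plasmacytoid dendritic cell markers 3 of 5 were higher, at 7.65 to 8.10 against 6.57 to 7.38. Relative to all genes, where 23.7% were higher and 25.0% lower, 8 of 12 dendritic cell, 6 of 10 red pulp macrophage and 3 of 5 plasmacytoid dendritic cell markers were higher. On that scale 9 of 9 B-cell, 6 of 6 erythroid, 6 of 8 T and NK cell and 6 of 7 neutrophil markers were lower. The scale has no zero, so no marker can be called absent, and the part of these shifts in the proteasome result was not tested.

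Proteasome transcripts were also higher with Hyd/HCTZ than with 2-HOBA added to Ang II, a comparison that shares the Hyd/HCTZ arrays and so is no second observation of them. Of the 46, 39 rose and 0 fell, where 45.7% of all genes were called, 36.0% higher and 9.72% lower. Relative to the median of all genes, 0.25, 30 rose, where 23.2% of all genes were higher and 21.1% lower. After quantile normalization 27 rose, where the shares were 22.5% and 14.6%. With a common array median 39 did, where they were 40.7% and 7.05%. For 38 of the 46 the arrays did not overlap, as for 35.0% of all genes. The core had a median difference of 1.38, the immunoproteasome 1.24 and the cap 0.69. Psmb6 differed by 1.87 (adjusted p = 5.37e-07), Psmb9 by 1.58, Psmb8 by 1.11 and Psmb7 by 1.38. Psmc4, an ATPase of the cap, differed by 1.20 here (adjusted p = 2.67e-06) and by 0.88 against Ang II alone. Its 2-HOBA values of 6.13, 6.26, 6.59 and 6.59 mostly lay below its Ang II values, and that difference, -0.32, was not called.

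No proteasome gene was called between Ang II and vehicle in wild-type cells (limma, 0 of 46, and 0 at an unadjusted p under 0.05), where 0% of all genes were called. The median difference was 0.01, with single genes from -0.37 to 0.27. The smallest p belonged to Psmb7, at 6.81 ± 0.32 (SD, n = 4) with Ang II and 7.16 ± 0.41 (SD, n = 7) with vehicle, a difference of -0.35 (95% interval -0.75 to 0.05). Psme2 differed by -0.37 (95% interval -0.80 to 0.06) and Psmd9 by -0.22, and the groups overlapped for all 3. When the array labelled wild-type vehicle replicate 2 was omitted, the median was -0.15 and 0 were called, and within array sets 1 and 2 it was 0.22 and -0.05.

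2-HOBA with Ang II gave higher values than Ang II alone for 41 of the 46 genes and for 14 of 14 core genes, yet none was called (limma, 0 of 46, and 0 at an unadjusted p under 0.05), as 0% of all genes were. The genes were read on the same arrays, so their directions are not independent. The share of all tested genes that were higher is not given here. The mean over all tested genes, relative to wild-type vehicle, was 0.041 with 2-HOBA and -0.006 with Ang II alone. The core median was 0.37, the immunoproteasome median 0.12 and the cap median 0.11. Psmg2 had the smallest p, at 0.47 (95% interval -0.03 to 0.98), and Psmb7 followed at 0.40 (95% interval -0.05 to 0.84). The 2-HOBA arrays all belong to set 2 while the Ang II arrays are split. Within set 2 the core median was -0.06, with array set as a fixed block -0.09 and as a random block 0.00, so the positive direction was not kept once the sets were matched. The tight spread of the core mean with 2-HOBA, 0.21 to 0.44, lay inside that of the Ang II arrays, -0.52 to 0.60.

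In NOX2 knockout cells the Ang II arrays were lower than vehicle for 34 of the 46 genes, with a median of -0.20, and 0 were called (limma; 0% of all genes). At an unadjusted p under 0.05 there was 1 of the 46, no more than chance gives. That gene was Psmc4, an ATPase of the cap base. It read 6.80, 6.38 and 6.63 with vehicle and 5.93, 6.42, 6.07 and 6.27 with Ang II, a difference of -0.43 (95% interval -0.85 to -0.01, adjusted p = 1.00), and the groups overlapped. Psmc5 and Psmd7 differed by -0.40 and -0.45. All arrays here belong to set 1, and the 46 genes were read on the same arrays, so their directions are not independent. The share of all tested genes that were lower is not given here. The mean over all tested genes, relative to wild-type vehicle, was -0.029 with knockout vehicle and -0.046 with knockout Ang II. Psmb8 was close to constant on the Ang II arrays, at 7.65, 7.61, 7.62 and 7.64, below the vehicle values of 8.04, 7.85 and 7.77, a difference that was not called.

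Between genotypes no proteasome gene was called under vehicle (limma, 0 of 46), where 0.00957% of all genes were called. At an unadjusted p under 0.05 there was 1 of the 46, no more than chance gives. That gene was Psmd5, at 4.13 ± 0.29 (SD, n = 3) in the knockout and 4.84 ± 0.59 (SD, n = 7) in the wild type, a difference of -0.70 (95% interval -1.31 to -0.09, adjusted p = 0.74). Both means are below 5, the value a gene had to pass on at least 3 arrays. Psmg2 differed by -0.45 and Psmb10 by 0.33, neither called. The median of the 46 was 0.08, and it was -0.04 when the array labelled wild-type vehicle replicate 2 was omitted. With array set as a fixed block it was 0.39, and 3 genes were called higher in the knockout: Psma2 at 1.07 (adjusted p = 0.032), Psma5 at 0.96 (adjusted p = 0.029) and Psmd12 at 0.77 (adjusted p = 0.016). With array weights, which gave that array a weight of 0.062, 6 were called lower instead, with Psmd5 at -0.97 (adjusted p = 0.012), Psmc6 at -0.63, Psmd1 at -0.61, Psmg2 at -0.59, Psme3 at -0.55 and Psmd2 at -0.54. The 2 treatments of the arrays thus gave opposite directions and no gene in common. The share of all genes called under each is not given here, so these counts are no result about the members.

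Under Ang II the genotypes also gave 0 of 46 (limma), where 0.0478% of all genes were called, 0.0383% lower. At an unadjusted p under 0.05 there was 1 of the 46, no more than chance gives. Psmc4 again had the smallest p and the knockout arrays, 5.93 to 6.42, all lay below the wild-type arrays, 6.55 to 6.90. The difference was -0.54 (SE 0.19, 95% interval -0.92 to -0.15), but the adjusted p was 0.49. Psmd11 differed by -0.54 (adjusted p = 0.73) and Psmb5 by -0.35 (adjusted p = 0.85), and their groups overlapped. The core median was -0.08, and 0.36 within set 1. The interaction of genotype and Ang II was called for 0 of 46 genes (limma), where 0% of all genes were called. Here too 1 of the 46 had an unadjusted p under 0.05, no more than chance gives. Psmc4 came first there too, at -0.56 (95% interval -1.11 to -0.02, adjusted p = 1.00), before Psmd12 at -0.53 and Psmc5 at -0.45. These comparisons share arrays, so the recurrence of Psmc4 is not independent.

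**Figure D5:**
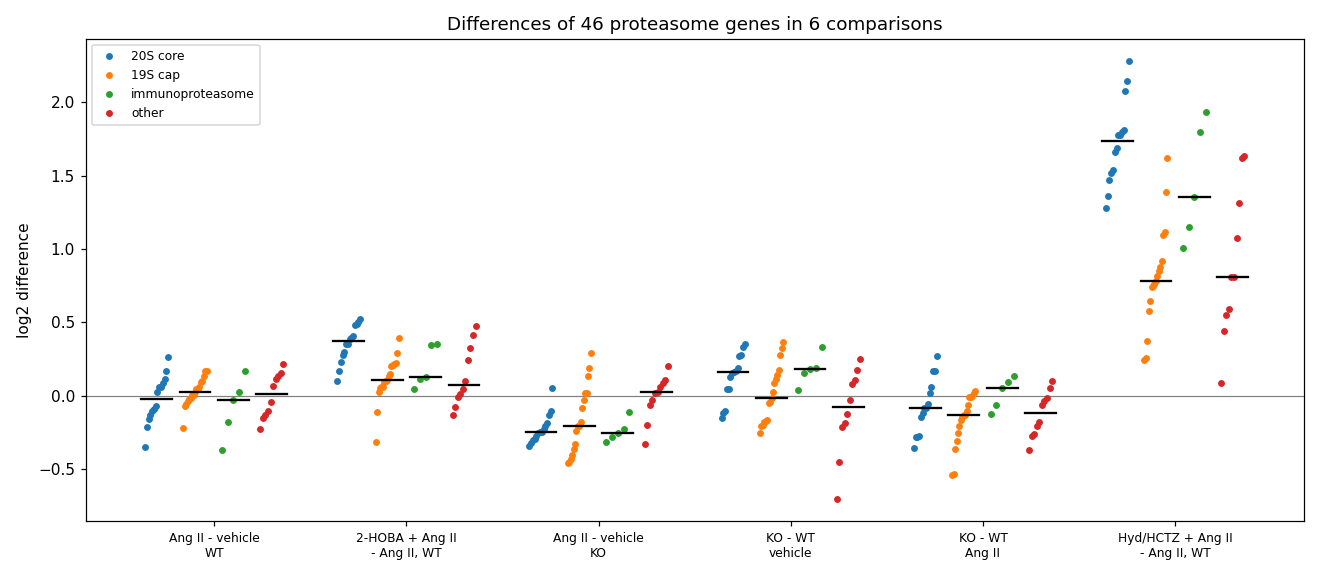
Log2 differences of the 46 proteasome genes in 6 comparisons, by class, with black bars at class medians. Only the Hyd/HCTZ comparison stands clear of 0, with class medians of 0.78 to 1.73 for cap, core and immunoproteasome. The 2-HOBA core genes lie above 0 with a median of 0.37, and none was called.

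Proteasome genes had a median within-group SD of 0.37 against 0.32 for all tested genes. Psmc3 varied least, at 0.19, and Psma3 most, at 0.59. Groups differed in their own spread: the SD of the mean over all 46 genes was 0.48 on the wild-type vehicle arrays, 0.32 with Ang II, 0.08 with 2-HOBA and 0.10 with Hyd/HCTZ. It was 0.22 on the knockout vehicle arrays and 0.15 on the knockout Ang II arrays. The wild-type vehicle and Ang II groups are split over array sets 1 and 2, while each other group lies within a single set. The order of the core means was Hyd/HCTZ at 1.70, 2-HOBA at 0.33, knockout vehicle at 0.13, wild-type vehicle at 0.00, wild-type Ang II at -0.02 and knockout Ang II at -0.09. Below Hyd/HCTZ neighbours in this order overlapped. With wild-type vehicle replicate 2 omitted, the wild-type vehicle mean was 0.15 (n = 6), above that of knockout vehicle.

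Other genes of the pathway were read from lists of partners, regulators and users of the proteasome. With Hyd/HCTZ against Ang II, 9 of 14 tested partners rose and 0 fell, where 40.8% of all genes were higher. Relative to all genes 6 rose, where 23.7% of all genes did. Beside Pomp they included Sem1, the small cap subunit, at 1.23, Txnl1, a cap-bound thioredoxin, at 1.19, Zfand2a, a stress-induced proteasome adaptor, at 1.28, and the shuttle factors Ubqln2 at 1.73 and Rad23b at 0.87. Usp14 and Uchl5, the cap-associated deubiquitinases, rose by 0.76 and 0.89 as deposited and not relative to all genes. Of 5 tested genes for ubiquitin activation and extraction 5 rose, against the same 40.8%, with Uba6, an E1 enzyme, at 1.14, Sqstm1, an autophagy receptor, at 1.09 and Vcp, the p97 segregase, at 0.97. Relative to all genes 2 did, Uba6 and Sqstm1, against 23.7%.

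Among 10 tested factors known to act on proteasome transcription, 3 rose as deposited and 0 fell, a share below the 40.8% of all genes. After quantile normalization 2 were higher and 2 lower, where 24.1% and 17.8% of all genes were. Nfe2l2, which encodes Nrf2, rose by 2.10 (SE 0.21), from 6.93 ± 0.35 (SD, n = 4) to 9.02 ± 0.23 (SD, n = 6). Maff, a small partner of it, rose by 2.68 (SE 0.23), and its Ang II mean of 4.72 lies below 5. Nfe2l1, which encodes Nrf1, the factor that restores proteasome genes after inhibition, differed by 0.46 and was not called (adjusted p = 0.12). Of the interferon-linked factors Irf8 rose by 0.76, Irf1 differed by 0.56 (adjusted p = 0.065), and Irf9 by 0.05. Nlrc5, the transactivator of class I genes, differed by -0.32 as deposited and was lower relative to all genes, at -0.64 (adjusted p = 0.0061).

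Of 12 tested genes of class I processing and loading 6 rose as deposited, near the 40.8% of all genes, so the count is no result about the list. Relative to all genes 2 rose, below the share of 23.7%: Lap3, a cytosolic aminopeptidase, at 1.32 and Tapbpl, a peptide editor, at 0.92. Tap1, the transporter gene that lies beside Psmb9 in the MHC, differed by 0.61 (adjusted p = 0.069) where Psmb9 rose by 1.94. Tap2, next to Psmb8, differed by 0.17 (adjusted p = 0.47), and B2m, the light chain of class I, by 0.27 (adjusted p = 0.17). In the 6 comparisons without Hyd/HCTZ 0 genes of these 4 lists were called (limma).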

How the data were processed

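Total RNA of splenic dendritic cells was read on 28 Affymetrix mouse arrays of 35556 probe sets. The deposited values are log2 expression values made by the authors with RMA in Partek 6.6, per the submitters' processing notes. RMA commonly includes quantile normalization, but the spread of values differs between these arrays, so results are given on other scales too. Probe sets were named through the platform annotation: 21789 carried 1 symbol, 1621 several and 12146 none. Groups follow the labels. A linear model of 6 group means over all arrays was fitted in limma (version 3.58.1, R 4.3.3), for genes above 5 on at least 3 arrays, and p-values were adjusted by Benjamini-Hochberg over 10452 genes; a gene was called at an adjusted p under 0.05. The fit was tested on simulated data. A second test set each difference against the median of all tested genes.

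The members and lists were chosen with earlier results of these data known. Full statistics go to the immunoproteasome, catalytic and 8 further genes in comparisons with calls, to the 6 largest rises and falls, and otherwise to the 3 smallest p; genes named beyond that were chosen after their values were seen. Alternatives were quantile normalization, a common median, other filters, a fold threshold, all probe sets, trend and robust options, array weights, only the groups compared, array set or replicate number as a block, each array set alone, and each array left out. Array set as a random block, and Ang II arrays of 1 set only, were added after seeing the data. No 2 arrays were duplicates. Nothing but their number, 3 to 7 a group, and their spread sets the precision.

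Promoters were searched on both strands for 15 motifs: the antioxidant core TGACNNNGC, the AP-1 site TGAGTCA, the gamma-activated site TTCNNNGAA, the CCAAT box, the ETS site CCGGAAG, the PU.1 site GGAAGTGA, the GC box CCGCCC, the cAMP element TGACGTCA and its shorter form TGACGC, the TATA box TATAAA, the NRF-1 site CTGCGCA, and by name the antioxidant element with AP-1 core, the interferon regulatory factor element, the NF-kB site and the NRF-1 palindrome. The cAMP forms can overlap the antioxidant core, and the PU.1 site can overlap the ETS site. Protein sequences were not used here.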

Additional observations from a re-analysis of the deposited data

Results flagged for a closer look

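Among 60 sets of values looked at, 2 held an array far from the rest of its group, where chance gives about 1 in 20, or 3, so the number is no more than chance gives. Both came from the same array, Ang II with 2-HOBA replicate 2 of the wild type. Its Psmb5 value was 7.68, the next lowest of the 4 arrays being 8.16, so that the gap was 0.873 of the group's range, past the 95% critical value for 4 samples. Its Psmb8 value was 7.66, with the next lowest at 7.84 and a gap of 0.874 of the range.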

How the results depend on the processing

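The number of called proteasome genes was 28 to 43 for Hyd/HCTZ against Ang II and 27 to 40 against 2-HOBA over all settings tried, with 37 to 48 of them tested, and 38 to 41 and 35 to 39 with single arrays left out. The share of all genes called higher moved between settings too, so these ranges do not describe the members alone. Against Ang II it was 16.6% with array set as a random block and 45.8% with a common median. For settings named only in this section, such as the replicate block, no such share is given. The number of called proteasome genes was 0 in the other comparisons in every setting, apart from knockout against wild type under vehicle. There array weights gave 6, array set as a fixed block gave 3, and leaving out any array gave 0. The cause was not tested. In the comparisons without Hyd/HCTZ class medians lie near 0 and several changed sign: the core median ran from -0.088 to 0.52 for 2-HOBA, from -0.25 to 0.40 for genotype under Ang II and from -0.32 to 0.19 for Ang II in the wild type. Of the genes given with full statistics, Psme3, Psmd11 and Psmb5 changed sign. For Hyd/HCTZ against Ang II, Psme3 was -0.38 after quantile normalization, -0.23 relative to all genes, -0.21 against Ang II arrays of set 2 and -0.047 with a replicate block, and ran from -0.022 to 0.23 with single arrays left out, the lowest without Ang II replicate 2. Psmd11 was -0.093 after quantile normalization. Against 2-HOBA, Psmd11 was -0.11 and Psme3 -0.16 after quantile normalization, and Psme3 -0.033 relative to all genes. For genotype under Ang II, Psmb5 was 0.00092 with array set as a fixed block. Same-numbered arrays correlated at -0.35 to 0.37 in their deviations, so the numbers do not pair the arrays. The replicate block gave 39 calls for Hyd/HCTZ against Ang II, 35 against 2-HOBA and 0 elsewhere. Array set as a fixed block, and fits within a set, could not be fitted for Hyd/HCTZ, whose arrays form a set of their own.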
